A study of Mus musculus with 14 samples.

Results

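The circadian clock output genes examined here are Per1, Per2, Per3, Cry1, Cry2, Dbp, Tef, Nr1d1, Nr1d2 and Ciart, 10 named genes that were looked up by symbol among the 56941 Ensembl genes of a count table of mouse aortic valve leaflets. Each of the 10 was found once, and 10 of 10 passed the minimum mean count of 10 that left 19145 genes for testing. The table holds 14 bulk RNA-seq libraries, each from 1 mouse: 4 Ctrl, 2 LY, 4 AngII and 4 AngII+LY mice. All were wild type C57BL/6J males with a stated age of 8 weeks. The paper describes mice of that age that were then infused for 28 days, so it is read as the age at the start. All ate the Breslow Western Diet, so the Ctrl mice were untreated but not on ordinary chow. AngII mice carried osmotic pumps that delivered the pressor hormone angiotensin II at 1000 ng/kg/min over 28 days. LY mice received intraperitoneal LY272015 at 3 mg/kg, an antagonist of the serotonin receptor HTR2B, and AngII+LY mice received both. The study asked whether HTR2B blockade alters the response of the valve to AngII. The design text has the pumps of the AngII and AngII+LY mice taken out 48 hours before collection, while the paper describes this for a subset, and pump removal therefore cannot be told apart from AngII in these groups. The sources also differ on how often LY272015 was injected, and the treatment field gives other compound numbers for 4 of the dosed mice, which were grouped by their titles. The hour of the day at which the valves were collected is not given in the sources used here, so collection time and treatment cannot be told apart either.

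The mammalian clock is a transcriptional feedback loop. BMAL1 and CLOCK bind E-box elements and switch on the Per and Cry genes, whose proteins return to the nucleus and repress BMAL1-CLOCK, and the casein kinases and F-box ubiquitin ligases set how long PER and CRY persist. A second loop runs through NR1D1 and NR1D2 (REV-ERBα and REV-ERBβ), nuclear receptors that repress Bmal1 at RORE elements in competition with the ROR receptors, and the PAR bZIP factors DBP and TEF carry the rhythm to further genes through D-box elements. CIART is a further repressor of BMAL1-CLOCK, and the output genes peak one after another over the day in vascular and cardiac tissue.

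The promoters of 5 members that recur in the results below are shown first, chosen after the values were seen, to place the clock elements they carry. Each window runs from 250 bases before to 50 bases after the start of the Ensembl canonical transcript, read 5′ to 3′ along the gene from GRCm39, so that its last part is the first exon. The windows are chr11:68989018-68989317 on the + strand for Per1 (ENSMUSG00000020893), chr1:91386997-91387296 on the - strand for Per2 (ENSMUSG00000055866), chr7:45354262-45354561 on the + strand for Dbp (ENSMUSG00000059824), chr11:98666110-98666409 on the - strand for Nr1d1 (ENSMUSG00000020889) and chr14:4230295-4230594 on the + strand for Nr1d2 (ENSMUSG00000021775). Capitals mark a match, on either strand, to an E-box (CACGTG), an E'-box (CACGTT), a D-box (TTATGNAA) or the RORE core (TAGGTCA), 4 element spellings that do not overlap in these windows.
Per1: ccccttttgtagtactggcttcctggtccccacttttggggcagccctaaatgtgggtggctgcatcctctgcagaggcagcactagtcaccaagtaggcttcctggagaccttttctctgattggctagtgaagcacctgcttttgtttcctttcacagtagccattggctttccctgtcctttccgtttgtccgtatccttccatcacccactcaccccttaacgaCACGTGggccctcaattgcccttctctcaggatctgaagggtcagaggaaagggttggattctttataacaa
Per2: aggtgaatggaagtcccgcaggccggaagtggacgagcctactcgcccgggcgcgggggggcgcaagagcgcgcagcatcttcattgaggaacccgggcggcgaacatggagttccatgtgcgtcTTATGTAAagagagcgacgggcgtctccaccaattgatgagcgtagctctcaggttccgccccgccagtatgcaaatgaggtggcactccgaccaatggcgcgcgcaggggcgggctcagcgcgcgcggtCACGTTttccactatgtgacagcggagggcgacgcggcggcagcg
Dbp: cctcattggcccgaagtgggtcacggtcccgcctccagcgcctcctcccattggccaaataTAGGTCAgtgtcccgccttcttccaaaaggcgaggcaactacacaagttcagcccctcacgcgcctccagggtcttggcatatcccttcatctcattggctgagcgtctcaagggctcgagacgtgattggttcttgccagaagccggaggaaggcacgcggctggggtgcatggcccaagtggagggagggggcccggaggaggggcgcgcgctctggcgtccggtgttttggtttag
Nr1d1: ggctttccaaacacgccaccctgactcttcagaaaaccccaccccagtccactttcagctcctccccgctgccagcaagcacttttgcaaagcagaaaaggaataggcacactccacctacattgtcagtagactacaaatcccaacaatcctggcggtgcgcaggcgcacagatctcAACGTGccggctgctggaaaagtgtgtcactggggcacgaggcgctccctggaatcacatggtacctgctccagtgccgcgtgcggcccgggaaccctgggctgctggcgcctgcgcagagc
Nr1d2: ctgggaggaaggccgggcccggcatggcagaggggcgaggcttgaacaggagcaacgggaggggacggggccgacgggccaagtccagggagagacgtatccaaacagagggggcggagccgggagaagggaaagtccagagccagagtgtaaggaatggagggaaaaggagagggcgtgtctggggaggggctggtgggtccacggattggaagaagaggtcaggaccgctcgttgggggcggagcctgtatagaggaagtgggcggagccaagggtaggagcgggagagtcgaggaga

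Per1 carried an E-box whose first base lay at position -22 from the start, and Ciart held 3 E-boxes, at -100, -42 and -28. Cry1 and Tef each held 1 E-box, so that 4 of the 10 members had this element against 7.84% of the 21667 protein-coding promoters of the same length. The E'-box was found in Per2, Cry1, Cry2 and Nr1d1, 4 members against 4.99% of promoters, and the Nr1d1 match lay at -72. D-boxes stood in Per2 and, in 2 copies, in Per3, while 3.36% of promoters held one. The RORE core was found in Dbp alone among the members, at -189, against 2.5% of promoters. A cAMP response element (TGACGTCA, in 2.44% of promoters) was in none of the 10 windows, and the Nr1d2 window held none of the 5 elements. These are matches of letters in 1 window per gene.

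Library totals ran from 20990655 counts in AngII 4 to 73128220 in AngII 2, and a member had between 113 and 20824 counts in a library. AngII 3 and AngII 4 stood apart: mitochondrial genes took 24.7% and 25.5% of their counts, against 9.83% to 11.0% in the other AngII mice and 4.0% to 7.52% in Ctrl, and their TMM factors were the lowest of the 14, at 0.83 and 0.793. AngII+LY 1 came next, at 20.2% and a TMM factor of 0.862, while the mitochondrial share was 10.1% to 12.7% in the other AngII+LY mice and 8.62% and 9.76% in the LY mice, above every Ctrl mouse. Markers of valve interstitial cells, the defining cells of the leaflet, took 0.497% to 0.899% of the AngII+LY counts. Their share was 0.938% to 1.94% for Ctrl, 1.16% and 1.91% for the LY and 1.2% to 1.8% for AngII libraries. In AngII+LY mice 8 of 8 of these markers were below their AngII level (median log2 fold change -0.89) and 8 of 8 below Ctrl (median -0.86), 5 of them at an edgeR unadjusted p under 0.05 in each comparison. Of all genes, 12.4% were lower at that p in AngII+LY vs AngII. In AngII+LY vs Ctrl 11.0% of all genes were under that p on either side. Cardiomyocyte markers held 0.905% to 3.6% of the Ctrl counts. Their share was 0.866% to 1.69% for AngII and 2.09% to 4.8% for AngII+LY libraries. In the latter 12 of 12 were higher, 9 at an unadjusted p under 0.05, against 10.1% of all genes. Adipocyte markers made up 0.0919% to 0.131% in Ctrl and 0.0427% to 0.0745% in AngII libraries, with 8 of 8 lower in AngII. Smooth muscle markers held 0.922% in Ctrl 1 and 0.131% in Ctrl 2, but 0.0231% and 0.0237% in Ctrl 3 and Ctrl 4. Their share was 0.0163% to 0.0321% in AngII libraries, a range that includes Ctrl 3 and Ctrl 4. In AngII vs Ctrl 5 of 5 were lower at p under 0.05, against 11.7% of all genes. In LY libraries they held 0.0187% and 0.0239%, close to Ctrl 3 and Ctrl 4. There 5 of 5 were lower than in Ctrl, 4 at p under 0.05, against 1.39% of all genes on either side. In bulk tissue, fewer cells that express a gene and less RNA of it per cell cannot be told apart, and the part of these shifts in the values below was not tested.

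In untreated valves the output genes spanned a wide range of expression level (TPM, counts per exon length scaled to 1 total in every library). Nr1d1 stood at 225 ± 79.8 TPM (SD, n = 4) and Dbp at 203 ± 68.2 TPM, ranges that overlapped each other and lay above all other members. Tef followed at 119 ± 11.7 TPM and overlapped Nr1d2 at 70.6 ± 29.2 TPM. The remaining 6 overlapped their neighbours in the order Per2 at 32.8 ± 1.29, Ciart at 30.0 ± 11.0, Cry2 at 27.2 ± 3.49, Cry1 at 19.3 ± 5.93, Per3 at 15.8 ± 2.31 and Per1 at 14.7 ± 5.84 TPM. The activators of the loop were lower than all of them: Clock stood at 6.84 ± 1.19 TPM and Bmal1 at 1.77 ± 0.424 TPM, with Npas2, a paralogue of Clock, at 1.41 ± 0.684 TPM. The spread between untreated mice differed strongly between members. Per2 normalised counts in the 4 Ctrl mice lay between 2893 and 3145, while Per1 ran from 1100 to 2263 and Nr1d2 from 6096 to 14382.

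**Figure D1:**
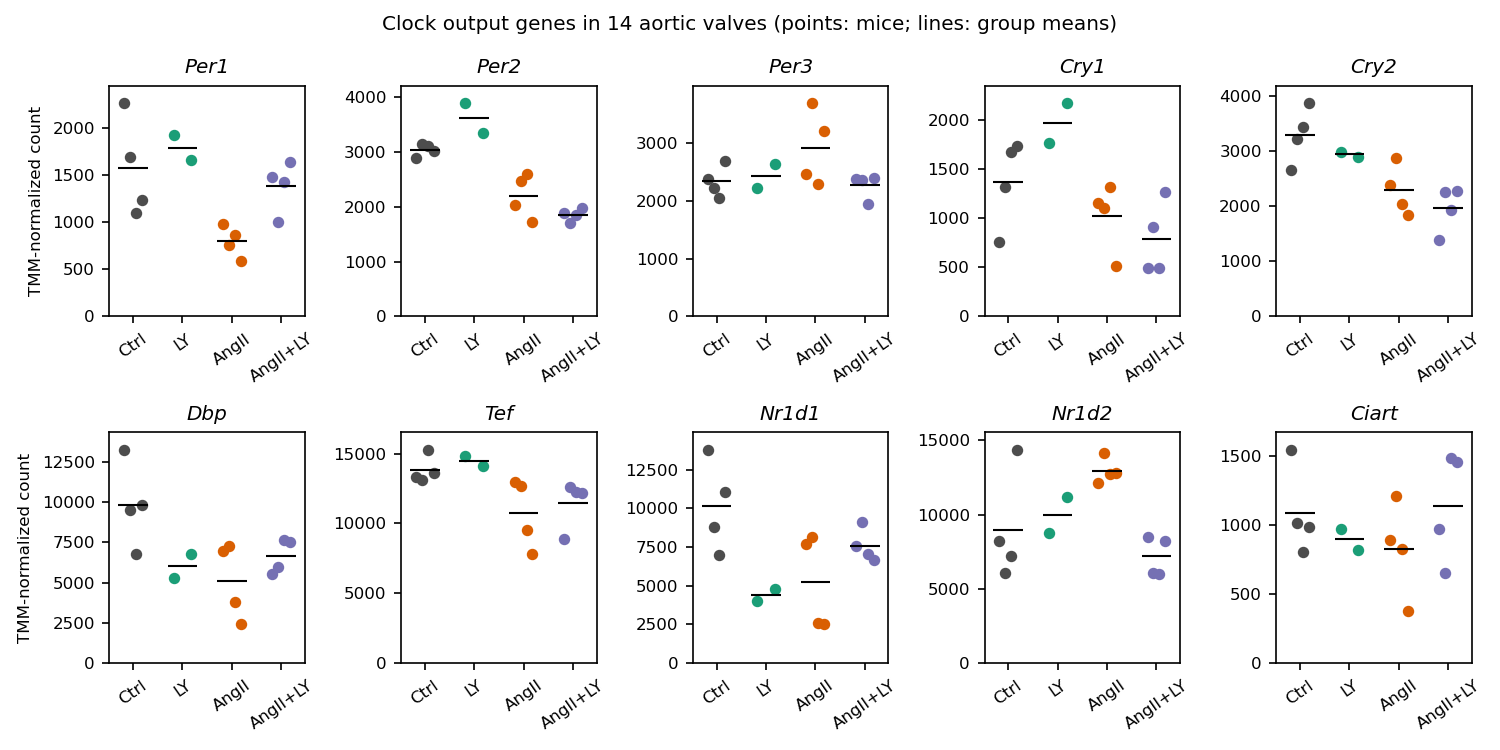
TMM-normalised count (linear axis from 0) of each of the 10 clock output genes in 14 valves, with 1 point per mouse and a line at the group mean. The 4 AngII points of Per1 (586 to 982) lie below all Ctrl points (1100 to 2263), and the 4 Nr1d2 points of AngII (12113 to 14183) lie above all AngII+LY points (5983 to 8466).

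The first comparison asked which output genes differed after AngII. Dbp, Nr1d1 and Per1 were lower by nearly the same amount, 1.93-fold, 1.93-fold and 1.96-fold, Cry2 and Per2 were lower by 1.44-fold and 1.38-fold, and Nr1d2 was higher by 1.44-fold. None of these passed edgeR's quasi-likelihood test after Benjamini-Hochberg adjustment over all genes, where 0 genes were called and the smallest adjusted p was 0.0573. At an unadjusted p under 0.05, 6 of the 10 members stood out against 25.2% of all genes tested, 5 of them lower (background 11.7%) and 1 higher (13.4%). DESeq2 called 3 members, Per1, Dbp and Nr1d1, at its adjusted threshold of 0.05 with a log2 fold change beyond 0.5 on either side, against 18.6% of the genes it tested. The median log2 fold change was -0.44 over the members and -0.06 over all genes. The ranges of the 4 AngII and 4 Ctrl mice did not overlap for Per1, Per2 and Tef, 3 of 10 members against 15.0% of all genes.

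Among the Period genes, which encode the repressors that partner CRY, Per1 had normalised counts of 2263, 1686, 1100 and 1231 in the Ctrl mice and 982, 761, 868 and 586 in the AngII mice. All AngII mice lay below all Ctrl mice, and the log2 fold change was -0.97 ± 0.25 (SE) with an unadjusted p of 0.00173 and an adjusted p of 0.0595 by edgeR (0.00803 by DESeq2). Per2 was between 2893 and 3145 in Ctrl and stood at 2026, 2479, 2604 and 1724 in AngII mice, again without overlap, with a log2 fold change of -0.46 ± 0.16 and an edgeR adjusted p of 0.1. Per3 lay on the other side of 0: its AngII values of 2456, 3688, 2287 and 3213 overlapped the Ctrl range of 2040 to 2690, and the log2 fold change was 0.32 ± 0.18 (edgeR unadjusted p = 0.0955).

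Of the cryptochromes, the partners of PER in the repressor complex, Cry2 had 2659, 3227, 3447 and 3879 counts in Ctrl and 2395, 2883, 2036 and 1853 in AngII mice. The ranges touched only through AngII 2 and Ctrl 1, and the log2 fold change was -0.53 ± 0.20 (edgeR adjusted p = 0.127). Cry1 spread from 755 to 1738 in Ctrl and from 513 to 1318 in AngII mice, so that the difference of -0.42 ± 0.37 on the log2 scale lay within the spread between mice.

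Dbp, the PAR bZIP factor with the steepest daily rhythm of the family, had normalised counts of 13281, 9506, 6770 and 9813 in Ctrl and 6945, 7271, 3788 and 2415 in AngII mice. The low end was set by AngII 3 and AngII 4, and AngII 1 and AngII 2 lay just above the lowest Ctrl mouse. The log2 fold change was -0.95 ± 0.31 (edgeR unadjusted p = 0.00897, adjusted p = 0.0962, DESeq2 adjusted p = 0.0231), and -0.47 when AngII 3 and AngII 4 were left out (edgeR unadjusted p = 0.0906). Tef stood at 13312, 13088, 15297 and 13606 in Ctrl and at 12958, 12703, 9559 and 7822 in AngII mice. The 2 groups did not overlap, but AngII 1 lay just below Ctrl 2, and the log2 fold change was -0.36 ± 0.19 (edgeR unadjusted p = 0.0734).

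The REV-ERB pair stood on opposite sides of 0. Nr1d1 had 13806, 8816, 6988 and 11030 counts in Ctrl and 7709, 8165, 2576 and 2538 in AngII mice (log2 fold change -0.95 ± 0.36, edgeR adjusted p = 0.128, DESeq2 adjusted p = 0.0438). AngII 3 and AngII 4 again held the lowest values, and without them the log2 fold change was -0.36 (edgeR unadjusted p = 0.181). Nr1d2 had 8213, 6096, 7221 and 14382 counts in Ctrl and 12113, 14183, 12726 and 12822 in AngII mice. The AngII mice formed a narrow band above 3 of the Ctrl mice, with Ctrl 4 above them all, and the log2 fold change was 0.53 ± 0.24 (edgeR unadjusted p = 0.0466). It ranged from 0.38 without Ctrl 2 to 0.85 without Ctrl 4, and p was under 0.05 only in the latter of the 14 fits that each left out 1 mouse. Ciart overlapped widely, at 806 to 1548 in Ctrl and 374 to 1208 in AngII mice, with a log2 fold change of -0.40 ± 0.35.

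**Figure D2:**
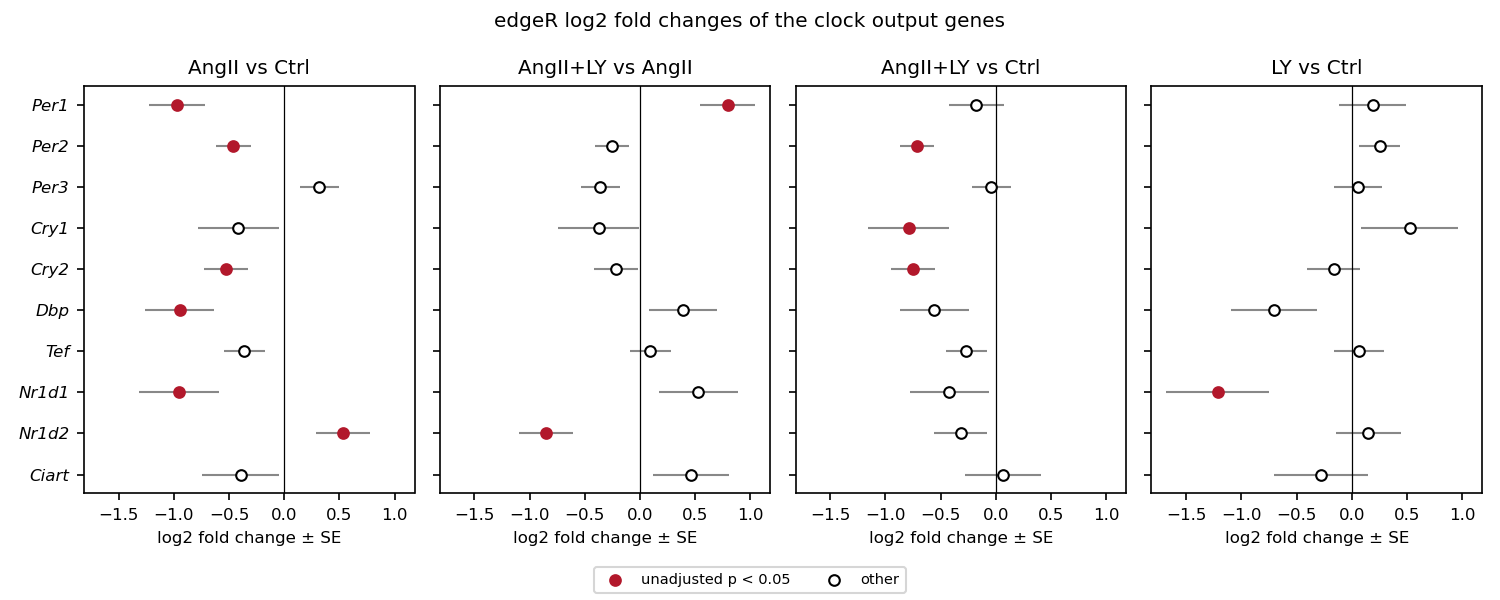
Log2 fold change with its standard error for each clock output gene in 4 comparisons, from 1 edgeR fit of all 14 libraries. The standard error is derived from the F statistic of the test. Red points have an unadjusted p under 0.05, 6 in AngII vs Ctrl, 2 in AngII+LY vs AngII, 3 in AngII+LY vs Ctrl and 1 in LY vs Ctrl, and none passed adjustment over 19145 genes.

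How many members stood out rested on single mice. Without AngII 4 only Per1, Per2 and Dbp kept an unadjusted p under 0.05 (3 members), without AngII 3 these and Per3 (4 members), and without both Per1 and Per2 (2 members). Leaving out Ctrl 4 brought Per1 and Nr1d2 past the adjusted threshold of edgeR, and leaving out AngII 1 brought Per1 past it. Nr1d2 lost p under 0.05 in the 13 fits that kept Ctrl 4, Nr1d1 without AngII 3, AngII 4 or Ctrl 1, and Cry2 without AngII 3, AngII 4 or Ctrl 4. Per1, Per2 and Dbp kept it whichever 1 mouse was removed.

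Of the genes that drive the loop, Clock was higher after AngII at an unadjusted p under 0.05, while Bmal1 and Npas2 (-0.29 ± 1.03 on the log2 scale) were not past it. Clock had normalised counts of 1644, 1676, 1328 and 2004 in Ctrl and 2152, 3109, 3473 and 4662 in AngII mice, without overlap (log2 fold change 1.01 ± 0.26, edgeR adjusted p = 0.0592, DESeq2 adjusted p = 0.00512). Bmal1, the partner of CLOCK and the target of the REV-ERB receptors, had 214, 254, 303 and 386 counts in Ctrl and 365, 392, 823 and 516 in AngII mice. Its ranges overlapped at Ctrl 4, and the log2 fold change was 0.86 ± 0.44 (edgeR unadjusted p = 0.0689).

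In the list of 7 activators and ROR receptors, 2 were higher at p under 0.05 (Clock and Bmal2) and 0 lower, with a median log2 fold change of 0.24 and 3 of the 7 below 0. Rora, an activator at the elements that the REV-ERBs repress, was at 0.24 ± 0.16, within its spread. Of 7 other repressors and PAR bZIP partners, Cipc (0.67 ± 0.27) and Tipin (0.62 ± 0.20) were higher and Timeless (-0.66 ± 0.31) lower at that threshold. Nfil3, a repressor at D-boxes, was at -0.54 ± 0.37, while Hlf, the third PAR bZIP factor (0.04 ± 0.25), Bhlhe40 (0.11 ± 0.21) and Bhlhe41 (0.23 ± 0.32), repressors at E-boxes, were near 0. Among 10 kinases and ubiquitin ligases of the clock proteins, Csnk1a1 (0.66 ± 0.18) and Gsk3b (0.51 ± 0.22) were higher and Csnk1d (-0.40 ± 0.17), the kinase that marks PER for decay, was lower.

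Other clock-controlled genes showed both directions. Of 10 on the list, Nampt (0.85 ± 0.27), Klf10 (0.67 ± 0.23) and Lonrf3 (3.22 ± 1.18) were higher, and Tspan4 (-0.72 ± 0.30) and Por (-0.87 ± 0.29) were lower at p under 0.05, with a median log2 fold change of 0.02. Lonrf3 had low normalised counts that overlapped, 8.33 to 71.3 in Ctrl and 64.9 to 721 in AngII mice. Per1 also answers to cAMP signalling and to glucocorticoids. Of 13 CREB targets and immediate early genes, Per1 among them, 9 were lower and 1 higher at p under 0.05, with a median log2 fold change of -0.64. Fos (-0.95 ± 0.26), Junb (-1.02 ± 0.29) and Ier2 (-0.85 ± 0.22) were lower by about as much as Per1, and Crem (0.70 ± 0.19) was higher. Of 12 glucocorticoid targets, which include Per1, 4 were lower and 2 higher, from Cebpd at -1.36 ± 0.29 to Mt2 at 1.32 ± 0.44, and Fkbp5 and Tsc22d3 were not among them. All these counts are read against the 25.2% of all genes below the same p.

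The second comparison, AngII+LY against AngII, asked which output genes differed when HTR2B was blocked during the infusion. Per1 was 1.73-fold higher and Nr1d2 1.8-fold lower in AngII+LY mice, and their ranges did not overlap between the groups. These were 2 of 10 members at an unadjusted p under 0.05 against 22.5% of all genes (1 lower against 12.4%, 1 higher against 10.1%), and 2 of 10 without overlap against 11.1%. edgeR called 0 genes (smallest adjusted p 0.0568, with 4315 genes at an unadjusted p under 0.05), and DESeq2 called both Per1 and Nr1d2, 2 of 10 members against 14.5%. The comparison shares the AngII mice with the first, so its values are given on their own.

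Per1 had normalised counts of 1479, 1005, 1428 and 1637 in AngII+LY mice, all above the highest AngII mouse at 982, with 3 of them inside the Ctrl range of 1100 to 2263. The log2 fold change was 0.79 ± 0.25 (edgeR adjusted p = 0.0992, DESeq2 adjusted p = 0.0273). Nr1d2 had 8466, 6075, 5983 and 8239 counts, all below the lowest AngII mouse at 12113 (log2 fold change -0.85 ± 0.24, edgeR adjusted p = 0.08, DESeq2 adjusted p = 0.0139). Both kept an unadjusted p under 0.05 without any single mouse and without AngII 3 and AngII 4 together. Clock was lower in AngII+LY mice as well, at 2546, 1787, 1140 and 1958 counts (log2 fold change -0.85 ± 0.26, edgeR adjusted p = 0.09). Bmal1 stood at 412, 820, 337 and 152 counts, and its log2 fold change of -0.28 ± 0.43 lay within the spread.

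The other 8 members did not pass p under 0.05 in this comparison. Nr1d1 (7550, 9103, 7024 and 6642 counts) was at 0.53 ± 0.36 and Dbp (5516, 5964, 7679 and 7557 counts) at 0.39 ± 0.31 on the log2 scale, and both overlapped the AngII range through AngII 1 and AngII 2. Without AngII 3 and AngII 4 their log2 fold changes were -0.07 and -0.09. Ciart was at 0.46 ± 0.35 and Tef at 0.09 ± 0.19, while Per2 (-0.25 ± 0.16), Per3 (-0.36 ± 0.18), Cry1 (-0.37 ± 0.37) and Cry2 (-0.22 ± 0.20) were lower in AngII+LY mice. Among the other lists, Tipin (-0.67 ± 0.21), Csnk1a1 and Fbxl21 were lower, 3 of 12 glucocorticoid targets (Ddit4 at 0.85 ± 0.37, Mt1 at 1.05 ± 0.24 and Per1) were higher, Usp2 (1.04 ± 0.44) was higher with Wee1 and Lonrf3 lower, and of the CREB and immediate early genes Per1 was higher and Crem lower, at p under 0.05.

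Set against Ctrl, the AngII+LY mice differed in another subset of the members. Per2 was 1.64-fold lower and Cry2 1.68-fold lower, and Cry1 was 1.73-fold lower with a wider error. These 3 of 10 members had an unadjusted p under 0.05 against 11.0% of all genes, and Per2, Cry2 and Tef were without overlap, 3 of 10 against 8.16%. edgeR called 0 genes (smallest adjusted p 0.0857, with 2112 genes at an unadjusted p under 0.05), and DESeq2 called Per2 and Cry2, 2 of 10 members against 2.48% of genes. Per2 had 1887, 1699, 1857 and 1972 counts in AngII+LY mice, a band about as narrow as that of the Ctrl mice and below it, at -0.71 ± 0.16 on the log2 scale (edgeR adjusted p = 0.177, DESeq2 adjusted p = 0.00229). Cry2 had 1385, 2268, 1939 and 2277 counts, all below the lowest Ctrl mouse at 2659 (log2 fold change -0.75 ± 0.20, edgeR adjusted p = 0.242, DESeq2 adjusted p = 0.0329). The lowest of these was AngII+LY 1, the library of the group with the highest mitochondrial share, and both genes kept an unadjusted p under 0.05 without it.

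Cry1 spread from 491 to 1271 counts in AngII+LY mice, at -0.79 ± 0.37 (edgeR unadjusted p = 0.0498), and lost that threshold in 11 of the 14 fits that each left out 1 mouse. Tef was at -0.27 ± 0.19 although the groups did not overlap. The remaining members lay within their spread: Per1 at -0.18 ± 0.25, Per3 at -0.04 ± 0.18, Dbp at -0.56 ± 0.31, Nr1d1 at -0.42 ± 0.36, Nr1d2 at -0.32 ± 0.24 and Ciart at 0.07 ± 0.34. Of the 7 activators and ROR receptors 0 had p under 0.05 here, and Clock was at 0.16 ± 0.26. Tspan4 (-0.79 ± 0.30) and Por were lower among the clock-controlled genes. The count for the CREB and immediate early genes was 4 lower of 13 (Fos, Egr1, Sik1 and Dusp1), with Per1 not among them. Of 12 glucocorticoid targets, 3 were lower (Sgk1, Cebpd and Dusp1) and 3 higher (Pdk4, Mt1 and Mt2), against 11.0% of all genes at that p. The same 6 passed after the GC correction described below.

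**Figure D3:**
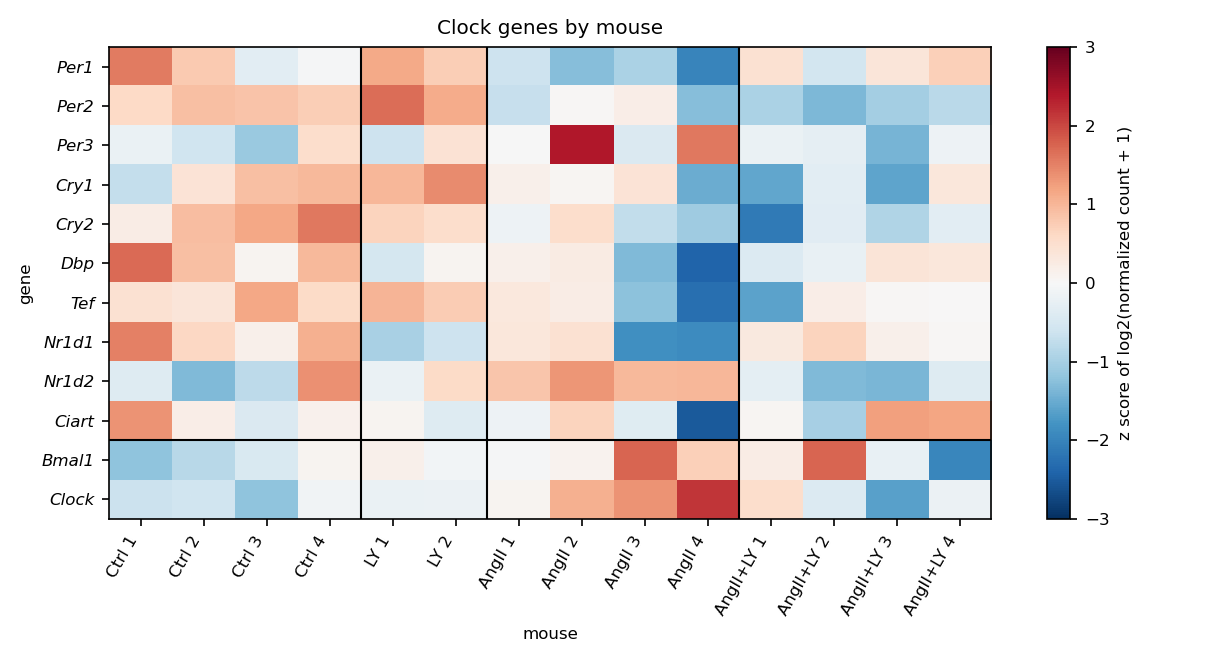
Heat map of the z score of log2(normalised count + 1) of the 10 output genes, and of Bmal1 and Clock below the line, in the 14 mice ordered by group (colour scale from -3 to 3). AngII 3 and AngII 4 are low for Dbp, Tef and Nr1d1, the AngII+LY mice are low for Per2, and Clock is highest in AngII 4.

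The comparison of LY with Ctrl rests on 2 LY mice. Nr1d1 was 2.32-fold lower, with 3990 and 4768 counts in LY against 6988 to 13806 in Ctrl mice (log2 fold change -1.21 ± 0.46, edgeR unadjusted p = 0.0203, adjusted p = 1.0). It was the 1 member of 10 at that threshold, against 1.39% of all genes, and it lost the threshold when either LY mouse was left out. edgeR called 0 genes, 266 had an unadjusted p under 0.05, and DESeq2 called 21, no member among them. Per2 (3896 and 3344 counts) and Cry1 (1771 and 2176) were above all Ctrl mice, at 0.25 ± 0.19 and 0.53 ± 0.44 on the log2 scale, so that with Nr1d1 3 of 10 members did not overlap, against 12.0% of genes. Dbp, at 5275 and 6800 counts, was at -0.71 ± 0.39 (edgeR unadjusted p = 0.0927), and Nr1d2, at 8743 and 11184, was at 0.15 ± 0.30. Per1 stood at 1926 and 1657 counts and 0.19 ± 0.30. Rorb was the 1 activator or receptor gene at the threshold, with 0 counts in both LY libraries against 2 to 28 in Ctrl. Among the glucocorticoid targets Fkbp5 (1.32 ± 0.43), Tsc22d3 (0.89 ± 0.35) and Ddit4 (1.26 ± 0.43) were higher, 3 of 12 at p under 0.05, while 4 of 13 CREB and immediate early genes were lower (Fos, Egr1, Nr4a1 and Atf3).

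Whether the effect of LY272015 differed with and without AngII was tested by the interaction term. Nr1d1 had an interaction of 1.74 ± 0.59 on the log2 scale (edgeR unadjusted p = 0.00989, adjusted p = 0.295). Its mean was lower in LY than in Ctrl mice and higher in AngII+LY than in AngII mice. The latter groups overlapped, and their difference did not pass (edgeR unadjusted p = 0.163). Dbp had 1.09 ± 0.50 (edgeR unadjusted p = 0.0459) in the same direction, and Nr1d2 had -1.0 ± 0.38 (edgeR unadjusted p = 0.0193). These were 3 of 10 members against 13.3% of all genes, and 0 genes passed the adjusted threshold of edgeR, with 2545 genes at an unadjusted p under 0.05 and 210 called by DESeq2. After the GC correction described below, Nr1d1 was at 1.37 ± 0.51 (edgeR unadjusted p = 0.0176) and Per2 at -0.90 ± 0.23 (edgeR unadjusted p = 0.00169), 2 of 10 members against 8.41% of genes. Dbp, at 0.66 ± 0.39 (edgeR unadjusted p = 0.114), and Nr1d2, at -0.46 ± 0.32 (edgeR unadjusted p = 0.179), then lost the threshold. The term rests on the same 2 LY mice.

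A ratio within a library hardly depends on its depth or scaling. The ratio of Dbp to Bmal1, a pair that peak in opposite parts of the day, was taken from raw counts plus 1. Its log2 value was 5.95, 5.22, 4.48 and 4.67 in Ctrl, 3.72 and 4.25 in LY, 4.25, 4.21, 2.20 and 2.22 in AngII and 3.74, 2.86, 4.51 and 5.62 in AngII+LY mice. All AngII mice lay below all Ctrl mice, and the difference of -1.86 had an exact 2-sided permutation p of 0.0286, the smallest that 4 against 4 allow, and 0.114 after Benjamini-Hochberg adjustment over 4 contrasts. With the GC correction described below it was -1.46 with the same exact p. The AngII+LY mice spanned nearly the whole range and differed from AngII by 0.96 (exact permutation p = 0.229) and from Ctrl by -0.90 (exact permutation p = 0.257). LY differed from Ctrl by -1.10, with both LY mice below all Ctrl mice (exact permutation p = 0.133, the smallest that this 2-sided test allows for 2 against 4).

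The ratio of Nr1d1 to Nr1d2 was added after the values were seen and carries no test. Its log2 value was 0.75, 0.53, -0.05 and -0.38 in Ctrl and -0.17, 0.58, 0.23 and -0.31 in AngII+LY mice, so that these 2 groups covered the same range. It was -1.13 and -1.23 in LY mice and -0.65, -0.80, -2.30 and -2.34 in AngII mice, all below the Ctrl and AngII+LY mice. In AngII 3 and AngII 4 there were 0.203 and 0.198 Nr1d1 counts for each Nr1d2 count, against 1.68 in Ctrl 1. The 2 genes differ widely in GC content (55.9% and 41.1%). After the GC correction described below, the log2 fold change in AngII vs Ctrl went from -0.95 to -0.58 for Nr1d1 and from 0.53 to -0.005 for Nr1d2, and in AngII+LY vs AngII from 0.53 to 0.24 and from -0.85 to -0.41, so that the 2 genes lay closer together in both comparisons.

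**Figure D4:**
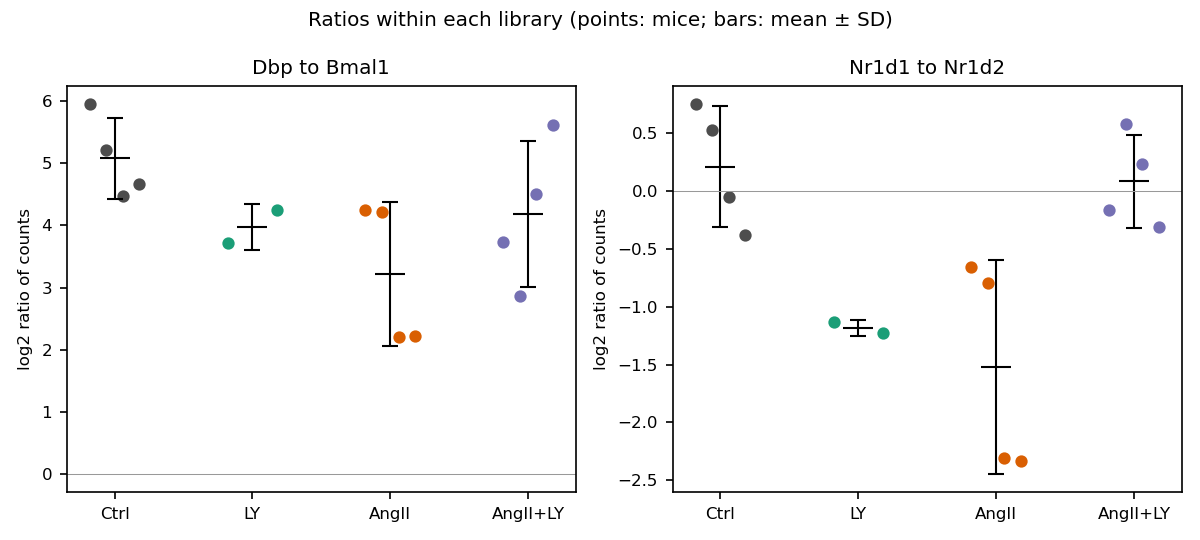
Log2 ratio of counts of Dbp to Bmal1 (left) and of Nr1d1 to Nr1d2 (right) in each mouse, with the group mean and SD as bars. For Dbp to Bmal1 the AngII mice (2.20 to 4.25) lie below the Ctrl mice (4.48 to 5.95), and for Nr1d1 to Nr1d2 the LY and AngII mice lie below the Ctrl and AngII+LY mice.

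Across the 14 mice, Dbp and Nr1d1 followed each other closely, with Pearson's r = 0.887 (adjusted p = 0.0003 over 3 pairs, from a permutation p of 0.0001) and Spearman's rho = 0.741 (permutation p = 0.0036, adjusted 0.011). Without AngII 4 and Ctrl 1, the 2 mice farthest from the median of Dbp, r was 0.796, and over deviations from the group means it was 0.857. Per1 and Per2 had r = 0.475 (permutation p = 0.086, adjusted 0.13) and rho = 0.538 (permutation p = 0.05, adjusted 0.075), 0.389 without AngII 4 and AngII 2, and 0.33 within groups. The REV-ERB pair did not follow each other, with r = -0.328 (permutation p = 0.25, adjusted 0.25) and rho = -0.209 (permutation p = 0.47, adjusted 0.47), r = 0.00673 without AngII 4 and AngII 3 and 0.168 within groups. These values share the library and its scaling. Among the pairs not tested, Cry2 with Tef (r = 0.805) and with Cry1 (r = 0.789) and Ciart with Dbp (r = 0.784) were the next closest, while Per3 with Per1 stood at r = -0.551.

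The mean z score of the 10 members summarised each valve. It was 0.165 to 0.788 in Ctrl, 0.326 and 0.465 in LY, 0.015, 0.465, -0.527 and -1.23 in AngII and lay between -0.634 and 0.098 for AngII+LY. Each member is part of this mean, which raises its r, so r with the profile of the other members is given second. Tef (r = 0.831, then 0.762) and Cry2 (r = 0.825, then 0.754) followed the profile most closely. Per3 (r = 0.017, then -0.156) and Nr1d2 (r = 0.092, then -0.083) followed it least. Bmal1 (r = -0.512) and Clock (r = -0.455), which are not in the mean, ran against it. Outside the members, the 5 genes most like the profile over the 14 libraries were Fbln1 (r = 0.961), Lztr1 (0.957), Mib2 (0.953), Npas3 (0.951) and Tspan4 (0.948), of which Tspan4 is on the clock-controlled list. The 5 with the lowest r were Gm2830 (-0.919), the ribosomal protein gene Rps24 (-0.911), the pseudogenes Rpl31-ps8 (-0.903) and Atp5l-ps1 (-0.902), and mt-Rnr1 (-0.893), a mitochondrial ribosomal RNA.

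The fold changes of the members followed the GC content of their exons. Nr1d2, with the lowest GC content of the 10 (41.1%), was the most strongly higher in AngII mice, and Dbp (57.5%), Per1 (56.0%) and Nr1d1 (55.9%), with the highest, were the most strongly lower. Over the 10 members Spearman's rho between GC content and log2 fold change was -0.842 in AngII vs Ctrl and 0.83 in AngII+LY vs AngII, and over 19043 genes it was -0.545 and 0.443. In LY vs Ctrl it was -0.43 over the members and -0.221 over all genes. These correlations run across genes of the same libraries, and genes are not independent replicates.

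After each library was corrected for gene GC content, the log2 fold change in AngII vs Ctrl was -0.51 ± 0.24 for Per1 (edgeR unadjusted p = 0.0508), -0.54 ± 0.24 for Dbp (edgeR unadjusted p = 0.0449) and -0.58 ± 0.32 for Nr1d1 (edgeR unadjusted p = 0.0856). Per2 (-0.06 ± 0.15), Cry2 (-0.22 ± 0.17) and Nr1d2 (-0.005 ± 0.20) stood near 0, and Per3 was at 0.45 ± 0.18 (edgeR unadjusted p = 0.0248). Per3 and Dbp, 2 of 10 members, then had p under 0.05, against 13.4% of genes. In AngII+LY vs AngII the corrected log2 fold change was 0.42 ± 0.24 for Per1 (edgeR unadjusted p = 0.0958) and -0.41 ± 0.21 for Nr1d2 (edgeR unadjusted p = 0.0642), while Per2 (-0.56 ± 0.15), Per3 (-0.46 ± 0.18) and Cry2 (-0.47 ± 0.17) had p under 0.05, 3 of 10 against 15.9%. In AngII+LY vs Ctrl, where rho was -0.148 over all genes and 0.0424 over the members, Per2 (-0.62 ± 0.15, edgeR unadjusted p = 0.000959) and Cry2 (-0.69 ± 0.17, edgeR unadjusted p = 0.00143) kept their values, 2 of 10 members against 12.4%. Nr1d1 in LY vs Ctrl was at -1.13 ± 0.41 (edgeR unadjusted p = 0.0143) after the correction. Clock, with a GC content of 41.8%, went to 0.43 ± 0.18 (edgeR unadjusted p = 0.0316) in AngII vs Ctrl and Bmal1, at 49.3%, to 0.97 ± 0.43 (edgeR unadjusted p = 0.0419). The other gene lists moved as well. In AngII vs Ctrl, 4 of 13 CREB targets and immediate early genes were then lower at p under 0.05 (Fos, Junb, Sik1 and Ier2) and 0 higher, with a median log2 fold change of -0.25. Of the 10 kinases and ubiquitin ligases 0 remained under that p, with Csnk1a1 at 0.035 ± 0.13, Gsk3b at 0.26 ± 0.19 and Csnk1d at 0.006 ± 0.14. The other lists held Clock and Bmal1 among the activators, Cipc among the other repressors, Klf10 and Lonrf3 of the clock-controlled genes, and 3 of 12 glucocorticoid targets (Mt2 higher, Sgk1 and Cebpd lower). In AngII+LY vs AngII, Tipin (-0.31 ± 0.16), Csnk1a1, Usp2, Wee1, Ddit4 and Crem no longer passed, while Mt1, Fbxl21, Lonrf3 and Clock did, and Csnk1d, Egr1 and Dusp1 were lower and Rorb higher at p under 0.05. After the correction, rho between GC content and log2 fold change in AngII vs Ctrl was -0.0879 over all genes but still -0.648 over the members. In AngII+LY vs AngII it was 0.0481 over all genes and 0.491 over the members. The corrected values of the members therefore still followed GC content. The correction removes any biological difference that runs along GC content together with a technical one, and the 2 cannot be told apart here.

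**Figure D5:**
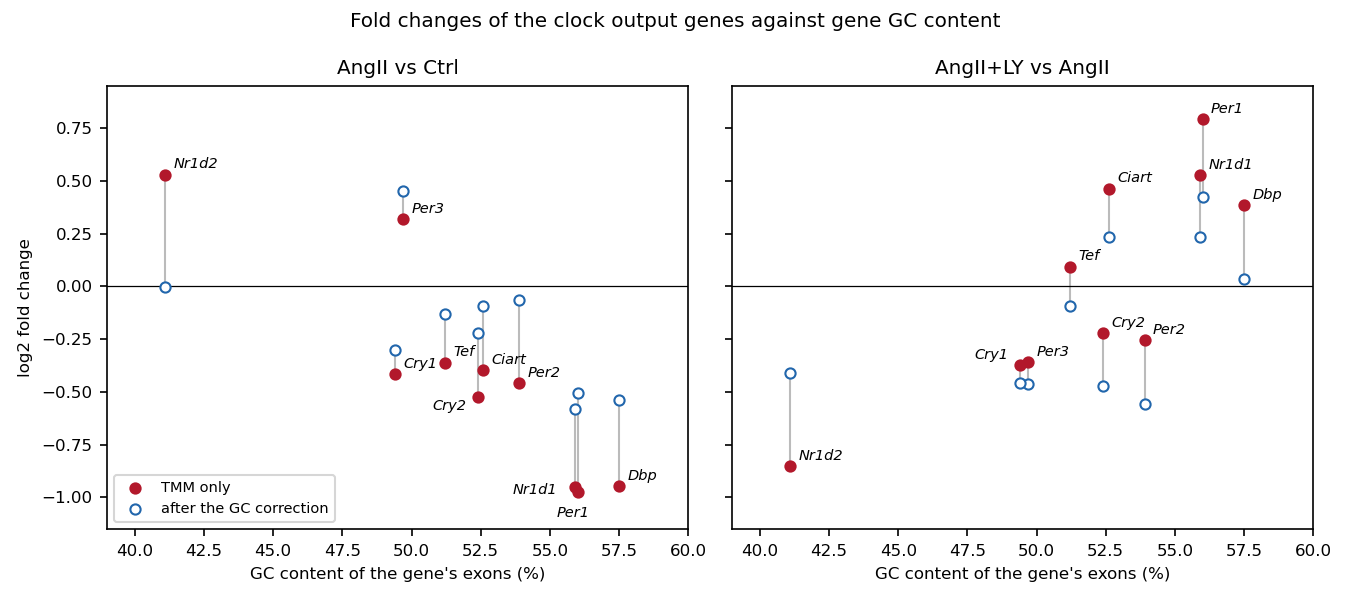
Log2 fold change of each clock output gene against the GC content of its exons (%), in AngII vs Ctrl (left) and AngII+LY vs AngII (right), before (filled) and after (open) the GC correction, joined by a grey line. In AngII vs Ctrl, Nr1d2 at 41.1% GC goes from 0.53 to -0.005, and Dbp, Per1 and Nr1d1 at 55.9% to 57.5% go from about -0.95 to between -0.58 and -0.51.

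Some members share exon sequence with a gene on the other strand, and the sources used here do not state whether the counting used strand, so reads of the 2 genes may not be separated. For Nr1d1, 1694 of its 3242 exon bases (52.3%) overlap Thra, which encodes the thyroid hormone receptor alpha, and its values carry that uncertainty. The overlap was 15.5% of Dbp with Sphk2, 9.59% of Ciart with C920021L13Rik, and 3.45% or less for Cry2, Tef and Per3 with other genes of the table. Nr1d2, Cry1, Per1 and Per2 had no such overlap with a gene of the table.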

How the data were processed

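Aortic valve RNA of 14 mice was sequenced in bulk. The authors checked reads with FastQC 0.12.1, trimmed them, aligned them to GRCm39 with HISAT2 and, per the labels, counted them per gene with featureCounts and used DESeq2. The deposited values are whole-number counts per Ensembl gene, although the table is named as normalized, and 0 columns belonged to no sample. Symbols came from GENCODE release 39 for mouse, where 618 genes with 0.0361% of counts had no match.

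A minimum mean count of 10 selected the genes tested in edgeR 4.0.16 (R 4.3.3) by TMM scaling, the quasi-likelihood test in its default form, 1 fit of the 4 groups, and Benjamini-Hochberg adjustment. Calls took the cut-offs of the study's methods, 0.05 for the adjusted p and 0.5 for the size of the log2 fold change. The standard errors given with edgeR values are the size of the log2 fold change over the square root of the F statistic of its test. Normalised counts are counts over the effective library size relative to its mean. GC content and exon length came from GENCODE exons, and the GC correction used loess with a span of 0.3. Alternatives were DESeq2 1.42.0, limma 3.58.1 with pseudocounts of 1 and 10, RLE factors, no filter, fits of 2 groups, the replicate number as a block, and leaving out each mouse. The form of the quasi-likelihood test with legacy off and the fit without AngII 3 and AngII 4 were added after the data were seen. Correlations used 100000 permutations. The pipeline was tested on simulated data.

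Depth was 20990655 to 73128220 counts per library. The lowest member value, 5.38 CPM, had a 95% Wilson interval of 4.48 to 6.47, and 3 counts in the smallest library are 1.4e-05% of it. Such intervals and floors cover counting error only. The members and the gene lists were chosen with earlier results of these data known. All members were named, and other genes by the rule that takes fixed clock genes, those of a list with an unadjusted p under 0.05 or the largest or smallest fold change, and the 5 genes most and least like the member profile, of which the text gives a selection made after values were seen. Cell type shares come from hand-written marker lists of valve interstitial, endothelial, cardiomyocyte, smooth muscle, adipocyte, macrophage, lymphocyte, melanocyte and erythroid genes. 1 gene of these lists is not reported here.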

Additional observations from a re-analysis of the deposited data

Results flagged for a closer look

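In 30 groups of 4 values, each member in the Ctrl, AngII and AngII+LY mice, 1 mouse lay far from the other 3 in 2 cases, where chance gives about 1 in 20. AngII+LY 3 had a Per3 normalised count of 1947 against 2352 to 2400 in the other 3 mice. AngII+LY 1 had a Tef normalised count of 8871 against 12189 to 12639, and mitochondrial genes took 20.2% of its counts against 10.1% to 12.7% in the other 3.

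For 3 members the effect of LY272015 differed between mice with and without AngII in the interaction term of edgeR, before adjustment over all genes. Its log2 value was 1.09 for Dbp, 1.74 for Nr1d1 and -1.0 for Nr1d2, with unadjusted p-values of 0.0459, 0.00989 and 0.0193. None passed adjustment (Nr1d1 adjusted p = 0.295), and each rests on 2 LY mice. After the GC correction Nr1d1 was at 1.37 (edgeR unadjusted p = 0.0176), Dbp at 0.66 (edgeR unadjusted p = 0.114) and Nr1d2 at -0.46 (edgeR unadjusted p = 0.179), while Per2 was at -0.90 (edgeR unadjusted p = 0.00169).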

How the results depend on the processing

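Values in the order AngII vs Ctrl, AngII+LY vs AngII, AngII+LY vs Ctrl are given for the number of genes called, which was 0 in edgeR. DESeq2 called 2648, 2062 and 343, with 21 in LY vs Ctrl and 210 for the interaction, and no filter on low counts gave 123, 1 and 13. limma with a pseudocount of 10 called 240, 403 and 6, and with a pseudocount of 1 it called 336 and 4 in AngII+LY vs AngII and AngII+LY vs Ctrl. The quasi-likelihood test with legacy off called 555 and 176 in the first 2, and leaving out AngII 3 and AngII 4 gave 61 in AngII+LY vs Ctrl. Leaving out 1 mouse gave 0 to 1725 called genes in AngII vs Ctrl, most without AngII 1 (805 without Ctrl 4, 382 without AngII 2), 0 to 844 in AngII+LY vs AngII, most without AngII 1, and 0 to 3 in AngII+LY vs Ctrl.

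Genes at an unadjusted p under 0.05 in AngII vs Ctrl numbered 2559 after the GC correction, 2203 with the GC correction and replicate block, and 1648 without AngII 3 and AngII 4, where 2 members passed in each case. Leaving out 1 mouse gave 3181 to 5667 genes and 3 to 6 members, both lowest without AngII 4. In AngII+LY vs AngII the number was 2542 with the GC correction and replicate block and 2871 without AngII 3 and AngII 4. In LY vs Ctrl it was 428 by DESeq2, 633 with no filter, 679 from the 2 groups alone and 485 with legacy off, and 111 to 379 genes and 0 to 2 members without 1 mouse, 0 members without either LY mouse. 2 members passed there in the fit of 2 groups, without AngII 4, and without AngII 3 and AngII 4. For the interaction it was 1601 after the GC correction and 1381 with the GC correction and replicate block, and without 1 mouse it was 1289 to 3178 genes with 1 to 4 members, lowest without LY 2. The log2 ratio of Dbp to Bmal1 in AngII vs Ctrl ranged from -2.20 to -1.52 when 1 mouse was left out, where the exact p of 0.0571 is the smallest that 3 against 4 allow.

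Some members turned their direction. Nr1d2 in AngII vs Ctrl was -0.005 after the GC correction. In AngII+LY vs AngII, Tef was -0.093 after the GC correction and -0.091 with the GC correction and replicate block, and without AngII 3 and AngII 4 Tef was -0.16, Dbp -0.091 and Nr1d1 -0.067. Per3 in AngII+LY vs Ctrl was 0.003 by DESeq2 and by RLE factors. When 1 mouse was left out, Tef in AngII+LY vs AngII ranged from -0.032 to 0.20. In AngII+LY vs Ctrl, Per1 ranged from -0.32 to 0.05, Per3 from -0.10 to 0.034, Nr1d2 from -0.47 to 0.002 and Ciart from -0.083 to 0.29, and in LY vs Ctrl Per3 ranged from -0.073 to 0.18 and Nr1d2 from -0.038 to 0.47. The cause of these shifts was not tested.

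Replicate numbers are shared between groups, but 0 of 18 same-numbered pairs of mice had correlated deviations above 0.1 (from -0.128 to 0.0897) and 2 of 14 libraries correlated best with their own number. With the replicate block alone, 4431 genes had an unadjusted p under 0.05 in AngII vs Ctrl, with 6 members, and 3 members passed in AngII+LY vs AngII, where Nr1d1 was 0.70 (edgeR unadjusted p = 0.0456). In AngII vs Ctrl the median log2 fold change of all genes was -0.145 with limma and a pseudocount of 1 and -0.121 with the block, against -0.06 in edgeR without the block.

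The 10 members were counted deeply, and the limits lie in 4 mice a group, 2 in LY, and a GC trend across all genes, weakest in AngII+LY vs Ctrl. The hour of collection, the strand setting of the counting and pump removal are not resolved.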
